A study of Homo sapiens with 2 samples.

Results

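The mRNAs described here encode the plasma apolipoproteins APOA1, APOA2, APOA4, APOB, APOC1, APOC3, APOE, APOH and APOM, together with MTTP, the microsomal triglyceride transfer protein. They were chosen by gene symbol, and all 10 were found among the 23709 genes of the deposited table. The values came from Caco-2 cells, an established human colorectal adenocarcinoma line with enterocyte-like properties, grown in DMEM with 10% fetal bovine serum and antibiotics, among them ciprofloxacin at 10 μg/mL. An RNC-mRNA library was made from polyadenylated RNA recovered with ribosome-nascent chain complexes, that is, RNA associated with ribosomes carrying a growing peptide. It was set against an mRNA library of polyadenylated RNA from total RNA of the same line. No treatment is named for either. The time in culture and the degree of enterocyte differentiation are not stated in the labels, nor whether both preparations came from the same culture.

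Apolipoproteins are secreted proteins that coat lipid droplets in the blood and direct them to receptors and enzymes. In enterocytes and hepatocytes, APOB is made on ribosomes bound to the endoplasmic reticulum and is loaded with lipid by MTTP as it enters the lumen, which starts a chylomicron or very-low-density lipoprotein. The smaller apolipoproteins are exchangeable: they move between particles, activate or restrain lipases, and in the case of APOA1 form high-density lipoprotein with lipid exported by cells. All are translated with a signal peptide, so their mRNAs are found on membrane-bound ribosomes.

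Start codon surroundings are shown first, since they are the part of each mRNA from which translation begins. Each line gives the bases around the start codon, in capitals, 5′ to 3′, from the GENCODE release 29 transcript linked to the gene's RefSeq record. APOA1, APOC3 and APOA4 lie on chromosome 11, APOE and APOC1 on chromosome 19, APOA2 on 1, APOB on 2, MTTP on 4, APOM on 6 and APOH on 17. For APOA1, APOC1 and APOM the linked transcript, of 1227, 689 and 1184 bases, is longer than the 897, 461 and 761 bases that the deposited values imply as the smallest length, so the bases before ATG may be those of another form of the mRNA than the one counted.
APOA1: cccttcaggATGaaagctgcggtg
APOA2: gttaccaacATGaagctgctcgca
APOA4: cagctcaggATGttcctgaaggcc
APOB: cagctggcgATGgacccgccgagg
APOC1: ggcctcgccATGaggctcttcctg
APOC3: agaggtgccATGcagccccgggta
APOE: ggcaggaagATGaaggttctgtgg
APOH: tcatccacaATGatttctccagtg
APOM: tgcctgaagATGttccaccaaatt
MTTP: ctggtcaatATGattcttcttgct

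All 10 start codons had A or G at the third base before ATG, the best-known feature of an efficient mammalian start site. It was A in 7 and G in 3 of them. The same feature was found in 85.5% of 11321 expressed protein-coding records with a linked transcript. G directly after ATG, the other part of the preferred context, was present in APOB alone of the 10, against 52.9% of the 11321, and 6 of the 10 had A there. Across the 11321 records, the median translation ratio described below was 0.04 where the third base before ATG was A or G and 0.00 where it was not. Coding regions ran over a wide range, with 249 bases for APOC1, 297 for APOC3, 300 for APOA2 and 13689 for APOB. The median over the 11321 records was 1359 bases.

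The values are RPKM, that is, read counts that the authors divided by transcript length and by the depth of the library. They rest on 11083302 reads in the RNC-mRNA library and 9640364 in the mRNA library, totals estimated from the values themselves. The translation ratio of a gene is log2 of its RNC-mRNA over its mRNA RPKM, with 0.1 RPKM added to each, minus the median of the same quantity (-0.04) over the 13402 genes with a mean of at least 1 RPKM. A ratio of 0 is therefore that of the median expressed gene. There was 1 library per group, so no test, standard deviation or p-value is possible, and each comparison describes this pair of libraries. The 95% intervals are exact Clopper-Pearson intervals on the reads, and cover counting error only. They treat each read as independent, whereas PCR copies are not independent molecules, so they may be too narrow. The intervals leave out the added 0.1 RPKM, so at low levels they belong to a ratio without it, which can differ from the one printed.

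As a group, these mRNAs made up 0.624% of the summed RPKM of the RNC-mRNA library and 0.799% of that of the mRNA library. Of the 10, 8 had a translation ratio below the median gene, against 50% of all expressed genes by construction. The median over the 10 was -0.37. At least 2-fold below the median was 1 of the 10, APOA4, where the background share was 11.8%, and none was at least 2-fold above, where it was 1.37%. Apart from APOA4, the displacement was less than 2-fold for each gene, and the share past 2-fold was close to that of all expressed genes. The interval lay wholly below 0 for 7 of the 10, and for none did it lie wholly past the 2-fold line. The share of all expressed genes that meets these interval rules was not computed. With many reads the intervals are narrow, so a small displacement is enough to exclude 0. For the level in either library, fewer cells making a transcript and less of it per cell cannot be told apart in a bulk sample.

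**Figure D1:**
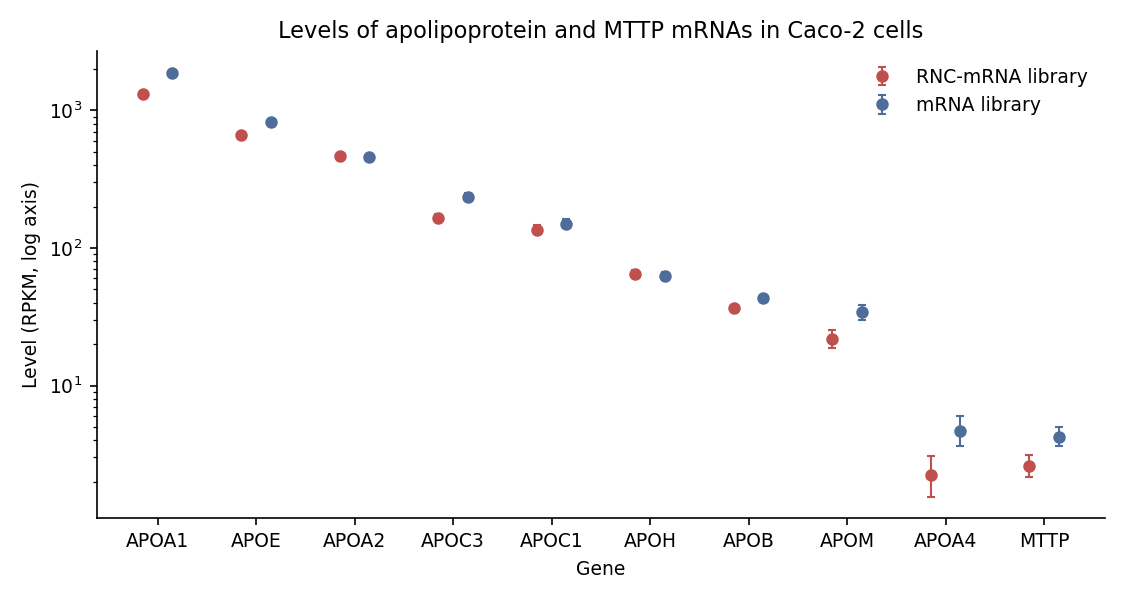
Level of each mRNA in RPKM on a log axis, with the RNC-mRNA library at the left and the mRNA library at the right of each pair, and genes ordered by mean level. Bars are exact 95% Poisson intervals on the reads; APOA1 is highest in both libraries and APOA4 and MTTP are lowest.

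Levels differed far more between genes than between libraries. APOA1, which forms high-density lipoprotein and activates the cholesterol-esterifying enzyme LCAT, had 1322 RPKM in the RNC-mRNA library and 1874 RPKM in the mRNA library. It ranked 39th of all genes in the RNC-mRNA library and 23rd in the mRNA library. The gene alone held 45.9% of the summed RPKM of the 10 in the RNC-mRNA library and 50.8% in the mRNA library. With APOE and APOA2 the share came to 85.1% in the RNC-mRNA library and 85.5% in the mRNA library. By level in both libraries, the order was APOA1, APOE, APOA2, APOC3, APOC1, APOH, APOB and APOM. The last places differed: MTTP was above APOA4 in the RNC-mRNA library and below it in the mRNA library. The counting intervals of those 2 genes' levels overlapped in each library, at 1.56 to 3.08 RPKM for APOA4 and 2.15 to 3.12 RPKM for MTTP in the RNC-mRNA library. In the mRNA library they were 3.63 to 5.97 RPKM for APOA4 and 3.64 to 4.96 RPKM for MTTP.

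Among the proteins of high-density lipoprotein, APOA1 and APOA2 separated. The reads behind APOA1 were 13147 in the RNC-mRNA library and 16204 in the mRNA library, and its translation ratio was -0.46 (interval -0.50 to -0.43). APOA2, the second protein of high-density lipoprotein, had 467 RPKM in the RNC-mRNA library and 456 RPKM in the mRNA library. Its ratio was 0.07 (interval -0.01 to 0.16), but -0.10 when centred on the 1000 most abundant genes and -0.0087 when only genes with a mean of at least 5 RPKM were kept. Per length, APOA1 was thus 2.83 times as abundant as APOA2 in the RNC-mRNA library and 4.11 times in the mRNA library, and the intervals of their ratios did not overlap. APOM, a lipocalin that carries sphingosine-1-phosphate on high-density lipoprotein, had 21.8 RPKM in the RNC-mRNA library and 34.2 RPKM in the mRNA library. Its ratio of -0.61 had an interval of -0.89 to -0.33, on 184 RNC-mRNA and 251 mRNA reads. In the reference annotation APOM overlaps BAG6 on the opposite strand, and no strand-preserving step is named in the labels. BAG6, a chaperone gene, had 108 RPKM in the RNC-mRNA library and 95.6 RPKM in the mRNA library, so part of the reads at the overlap could belong to either gene.

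APOA4, an enterocyte apolipoprotein secreted on chylomicrons, was the lowest of the 10 by ratio. Its level was 2.22 RPKM in the RNC-mRNA library, on 36 reads, and 4.69 RPKM in the mRNA library, on 66 reads. The ratio of -1.00, or -1.04 without the added 0.1 RPKM, had an interval of -1.67 to -0.43, wider than that of any other member. Its place at the 2-fold line was not secure, since 4 alternative settings put it short of the line or left it out. With the fewest whole reads that the values allow, 18 in the RNC-mRNA library and 33 in the mRNA library, the interval would be -1.95 to -0.17.

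The remaining exchangeable apolipoproteins lay at or below the median gene. APOE, a ligand of receptors that take up lipoprotein remnants, had 666 RPKM in the RNC-mRNA library and 825 RPKM in the mRNA library. Its ratio was -0.27 (interval -0.31 to -0.23), on 8705 RNC-mRNA and 9383 mRNA reads. APOC3, an inhibitor of lipoprotein lipase and of remnant uptake, had 165 RPKM in the RNC-mRNA library and 237 RPKM in the mRNA library. Its ratio of -0.48 (interval -0.60 to -0.36) was close to that of APOA1, and the intervals overlapped. APOC1, which inhibits cholesteryl ester transfer and lipoprotein uptake, had 135 RPKM in the RNC-mRNA library and 151 RPKM in the mRNA library. Its ratio was -0.12 with an interval that spans 0 (-0.27 to 0.04). The pseudogene APOC1P1, a near copy beside it, had 0.192 RPKM in the RNC-mRNA library and 0.884 RPKM in the mRNA library, so reads shared by the pair could be counted for either.

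APOH, also called beta-2-glycoprotein I, binds anionic phospholipids and is only loosely a lipoprotein component. It had 64.5 RPKM in the RNC-mRNA library and 62.6 RPKM in the mRNA library. The ratio was 0.08 (interval -0.06 to 0.22), but -0.09 when centred on the 1000 most abundant genes and -0.0028 when only genes with a mean of at least 5 RPKM were kept. APOH and APOA2 were the members above the median gene, whereas all 10 lay below it under that centring and all 8 that were kept lay below it under that filter.

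The structural and assembly proteins were at lower levels. APOB, the non-exchangeable protein that stays with its particle for life, had 36.8 RPKM in the RNC-mRNA library and 43.1 RPKM in the mRNA library. Because the transcript is 14121 bases long, these levels rest on 5761 RNC-mRNA and 5862 mRNA reads, and the ratio of -0.19 had a narrow interval of -0.24 to -0.14. MTTP had 2.60 RPKM in the RNC-mRNA library, on 118 reads, and 4.26 RPKM in the mRNA library, on 168 reads. Its ratio of -0.65 had an interval of -1.02 to -0.32, which did not overlap that of APOB. With the fewest whole reads that the values allow, the MTTP counts would be 59 in the RNC-mRNA library and 84 in the mRNA library. The interval would then be -1.18 to -0.18, which overlaps that of APOB. In the reference annotation MTTP overlaps TRMT10A, a protein-coding gene on the opposite strand with 0.875 RPKM in the RNC-mRNA library and 0.726 RPKM in the mRNA library, so reads at that overlap could also belong to either gene. Per length, APOB was 14.1 times as abundant as MTTP in the RNC-mRNA library and 10.1 times in the mRNA library.

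**Figure D2:**
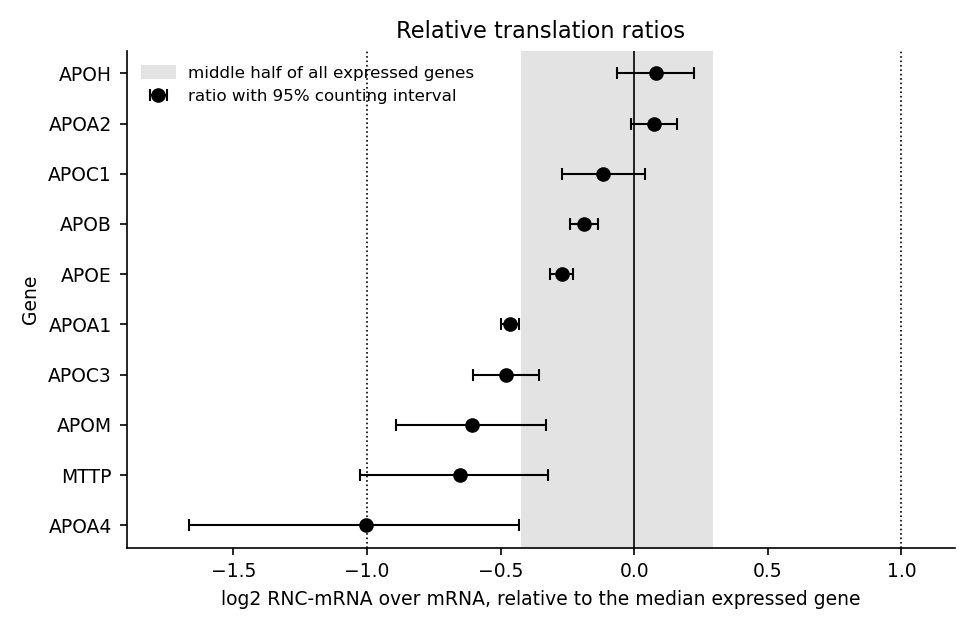
Translation ratio of each mRNA (log2 RNC-mRNA over mRNA, relative to the median expressed gene), with its exact 95% counting interval. The grey band spans the middle 50% of all expressed genes and the dotted lines mark 2-fold; APOA1, APOC3, APOM, MTTP and APOA4 lie left of the band.

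Ordered from lowest to highest ratio, the 10 were APOA4, MTTP, APOM, APOC3, APOA1, APOE, APOB, APOC1, APOA2 and APOH. Neighbours in this order had overlapping intervals, except APOA1 and APOE, whose intervals were separate. Over all 45 pairs, the intervals of 29 did not overlap. With the fewest whole reads, the wider intervals of MTTP and APOA4 would both overlap those of APOB, APOE and APOC1. The count of separate pairs would then be lower. By counting intervals alone, the 10 mRNAs did not share a single ratio. The share of such pairs among other genes of like depth was not computed, so the count is not a trait of these genes. The middle 50% of all expressed genes lay between -0.42 and 0.29, and APOA1, APOC3, APOM, MTTP and APOA4 were below that range.

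Ratios depended on level across the whole table, so each gene was also placed among genes of like level. With expressed genes split into deciles by mean RPKM, the median ratio was -0.57 in the lowest decile and 0.17 in the highest. The 10 mRNAs described here each lay below the median of their own decile. APOA1 and APOC3 were among the lowest of the most abundant decile, where 3.88% and 3.81% of 1340 genes had a lower ratio. For APOE, in the same decile, 9.48% were lower, for APOC1 18.1%, for APOA2 37.7% and for APOH 38.0%. In its decile, 7.31% of genes lay below APOM, and 17.4% of those in its decile lay below APOB. For the low-level genes the place was less extreme, with 17.2% of genes below APOA4 and 26.4% below MTTP. Among all 6509 genes with a mean of at least 10 RPKM, 37.8% had a ratio below 0. Of the 8 apolipoproteins at that level, 6 did. None of the 8 was at least 2-fold below the median gene or at least 2-fold above it, where the shares among the 6509 were 3.15% and 0.799%.

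**Figure D3:**
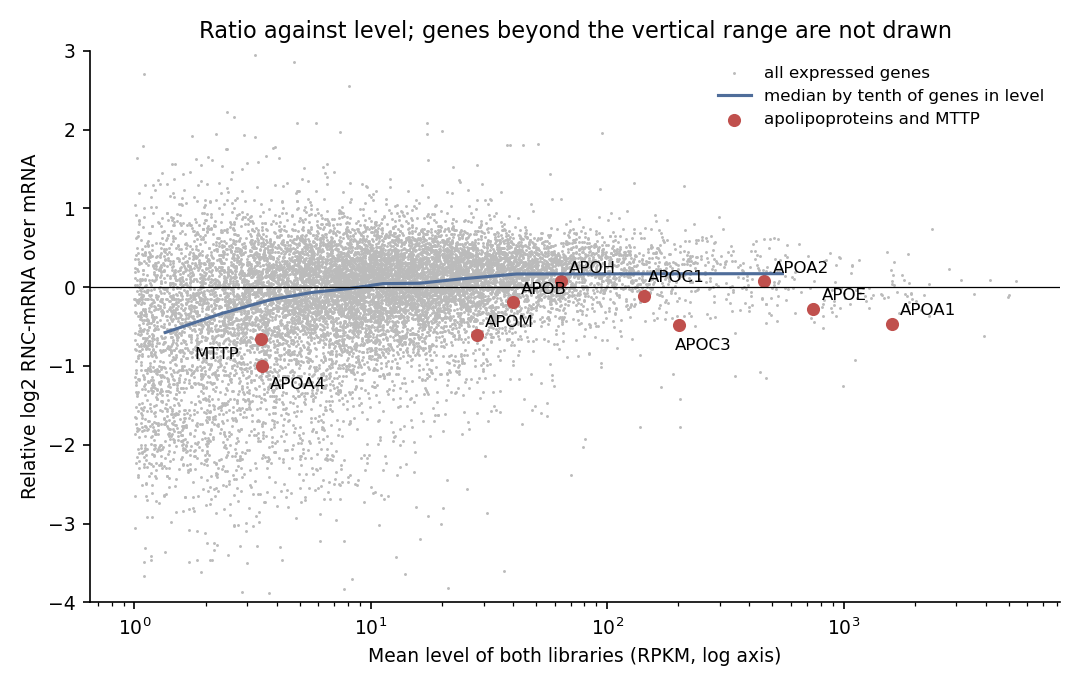
Translation ratio against mean RPKM of both libraries (log axis) for the 13402 expressed genes in grey, with the median of each decile of genes as a line. The 10 named mRNAs, in red, lie below the line; 79 genes beyond the vertical range of -4 to 3 are not drawn.

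Genes that work with these proteins were described from lists of the pathway. Among 33 assembly, editing and secretion factors, 31 were expressed, with a median ratio of 0.17. Of these, 12 were below the median gene, 1 by 2-fold or more, and none was that far above it. P4HB, the protein disulfide isomerase that forms a complex with MTTP, had 378 RPKM in the RNC-mRNA library and 395 RPKM in the mRNA library, with a ratio of -0.02 (interval -0.06 to 0.01). It was 145 times as abundant as MTTP per length in the RNC-mRNA library and 92.7 times in the mRNA library, and it also serves many other secreted proteins. CALR, a lectin chaperone of the endoplasmic reticulum, was the most abundant of the list, at 491 RPKM in the RNC-mRNA library and 508 RPKM in the mRNA library (ratio -0.01). TM6SF2, a membrane protein needed for lipid loading of very-low-density lipoprotein, was lowest at -1.13 (interval -1.73 to -0.62), with 2.62 RPKM in the RNC-mRNA library and 6.02 RPKM in the mRNA library. MIA2, part of the export machinery for large cargo, was highest at 0.77, but its interval ran from 0.01 to 1.71.

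APOB mRNA is known to be edited in the intestine, where APOBEC1 with its RNA-binding cofactor A1CF changes a C to U and so creates a stop codon that yields the shorter APOB-48 of chylomicrons. The reference transcript on chromosome 2 held 1 in-frame CAA followed 2 bases later by TGATCA, the start of the element that holds the editing complex. It was codon 2180 of 4563, and its C is base 6666 of the transcript. The 30 bases around it are shown with the codon in capitals.
APOB editing site: tatatgataCAAtttgatcagtatattaaa

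A1CF had 6.54 RPKM in the RNC-mRNA library and 4.93 RPKM in the mRNA library, a ratio of 0.44 (interval 0.27 to 0.62). APOBEC1 was near the detection limit, with 0.101 RPKM in the RNC-mRNA library and 0.116 RPKM in the mRNA library, which is 1 read in each. Editing itself cannot be read from gene-level RPKM and was not measured here.

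Other apolipoproteins and lipoprotein-borne proteins went in both directions. Of 22, 11 were expressed, with a median ratio of -0.11, 7 below the median gene, 4 of them by 2-fold or more, and 1 as far above it. The 4 were all of the expressed members of the APOL family, several of which are induced by interferon. APOL1 had 0.628 RPKM in the RNC-mRNA library and 3.82 RPKM in the mRNA library (ratio -2.39, or -2.57 without the added 0.1 RPKM, interval -3.31 to -1.88). APOL4 followed at -1.52, APOL6 at -1.14 and APOL2 at -1.10. The family is closely related in sequence, so reads may be split wrongly among its genes. APOD, a lipocalin structurally unlike the exchangeable apolipoproteins, was the exception above, with 63.6 RPKM in the RNC-mRNA library and 31.4 RPKM in the mRNA library (ratio 1.05, interval 0.87 to 1.24). PON2, an intracellular lactonase, was as abundant as APOD by mean level and was at 0.11. APOC2, the activator of lipoprotein lipase, and the acute-phase SAA1 and SAA4 were listed at 0 in both libraries.

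**Figure D4:**
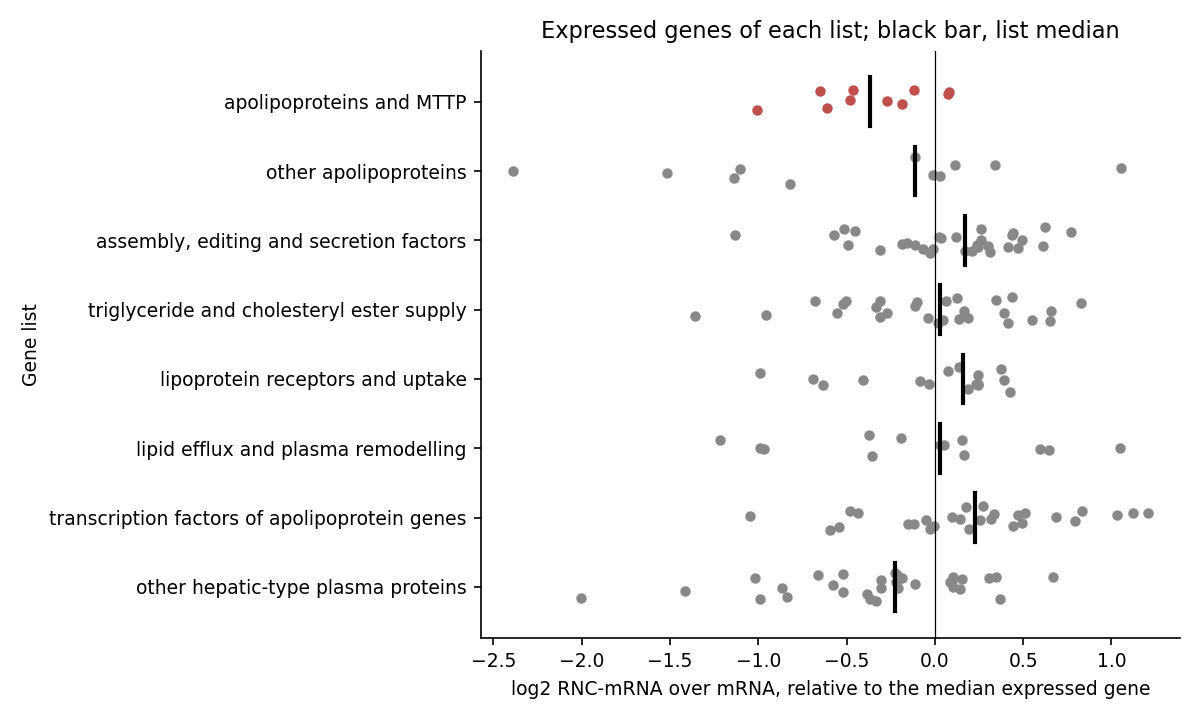
Translation ratio of each expressed gene in the 10 named mRNAs (red, top row) and in pathway lists (grey), with each list's median as a black bar. The median of the named mRNAs is -0.37; those of the transcription factors and of the assembly factors are 0.23 and 0.17.

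Genes that supply triglyceride and cholesteryl ester for particle assembly lay around the median gene. Of 32, 28 were expressed with a median ratio of 0.03, 13 below it, 1 below it by 2-fold or more and 0 above it by as much. SCD, the stearoyl-CoA desaturase, had 314 RPKM in the RNC-mRNA library and 243 RPKM in the mRNA library (ratio 0.41). FABP1, which carries fatty acids in enterocytes and hepatocytes, had 90.7 RPKM in the RNC-mRNA library and 137 RPKM in the mRNA library (ratio -0.56, interval -0.72 to -0.40). GPAM, which starts glycerolipid synthesis, was highest at 0.83, and LPIN3, a phosphatidate phosphatase, lowest at -1.36 (interval -1.53 to -1.20). MOGAT2 and FABP2, absorptive enterocyte genes, had 0 RPKM in the RNC-mRNA library and 0.41 and 0.28 RPKM in the mRNA library, in that order.

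Receptors were mostly above the median gene. Of 21 genes of lipoprotein binding and uptake, 16 were expressed with a median ratio of 0.16, 6 below the median gene and 0 at least 2-fold away. LRP1, the large remnant receptor that binds APOE, was lowest at -0.99 (interval -1.06 to -0.93), with 20.3 RPKM in the RNC-mRNA library and 41.5 RPKM in the mRNA library. VLDLR was below the level filter, at 0.720 RPKM in the RNC-mRNA library and 0.742 RPKM in the mRNA library. SCARB1, the high-density lipoprotein receptor, had a ratio of 0.39 and LSR, a lipolysis-stimulated receptor and the most abundant of the list, 0.23. LRP6, mainly a Wnt co-receptor, was highest at 0.42.

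Of 24 genes of lipid efflux and plasma remodelling, 22 were matched in the table and 13 expressed, with a median ratio of 0.03, 6 below the median gene, 1 of them by 2-fold or more, and 1 as far above it. ABCA1, the transporter that loads lipid onto APOA1, had 6.37 RPKM in the RNC-mRNA library and 4.15 RPKM in the mRNA library (ratio 0.65, interval 0.48 to 0.83). LCAT, activated by APOA1, had 3.93 RPKM in the RNC-mRNA library and 8.12 RPKM in the mRNA library (ratio -0.99, interval -1.49 to -0.54). The cholesterol exporter ABCG1 was lowest at -1.22 (interval -2.12 to -0.61) and the endothelial lipase LIPG highest at 1.05 (interval 0.79 to 1.36). NPC2, a lysosomal cholesterol carrier, and FURIN, a convertase, were the most abundant, at 0.16 and 0.05.

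Transcription factors known to act on apolipoprotein genes had a higher median than the apolipoproteins. Of 35, 28 were expressed with a median ratio of 0.23, 10 below the median gene, 1 of them by 2-fold or more, and 3 as far above it. HNF4A, which binds the promoters of APOA1, APOC3 and MTTP among others, had 95.2 RPKM in the RNC-mRNA library and 77.4 RPKM in the mRNA library (ratio 0.34, interval 0.28 to 0.40). The forkhead factors FOXA2 at 1.21 and FOXA1 at 1.12 and the zinc-finger factor GATA6 at 1.03 were highest, and the related GATA4 lowest at -1.05 (interval -1.68 to -0.56). CDX2, an intestinal identity factor, was among the most abundant at 0.18. Levels of the factors and of the apolipoprotein mRNAs were measured in the same libraries, and a relation between them was not tested.

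A list of liver-type plasma proteins, which are also secreted, was set beside the apolipoproteins. Of 43, 31 were expressed with a median ratio of -0.22, 21 below the median gene, 3 of them by 2-fold or more, and none as far above it. VTN, the adhesive protein vitronectin, had 429 RPKM in the RNC-mRNA library and 513 RPKM in the mRNA library (ratio -0.22). SERPINA1, the main inhibitor of neutrophil elastase, was at -0.11. The coagulation factor F5 at -2.01 (-2.27 without the added 0.1 RPKM, interval -2.82 to -1.76), antithrombin SERPINC1 at -1.42 and AFP at -1.02 were lowest. Complement C5 was highest at 0.67. No difference between this group and the apolipoproteins was tested.

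Genes beside the apolipoprotein clusters were read from the same libraries. Along chromosome 11 the reference gene order runs BUD13, ZNF259 (also called ZPR1), APOA5, APOA4, APOC3, APOA1, SIK3 and PAFAH1B2. APOA5 had 0.467 RPKM in the RNC-mRNA library and 0.483 RPKM in the mRNA library, below the level filter. Within the cluster, APOA1 was the most and APOA5 the least abundant gene. APOA4, APOC3 and APOA1 had ratios of -1.00, -0.48 and -0.46, whereas ZNF259 was at 0.49, SIK3 at 0.04 and PAFAH1B2 at 0.16. Along chromosome 19 the order is TOMM40, APOE, APOC1, APOC1P1, APOC4, APOC2 and CLPTM1. TOMM40 had a ratio of 0.51 and CLPTM1 of 0.65, against -0.27 for APOE and -0.12 for APOC1. Farther out, beyond TOMM40, PVRL2 was at 0.34, BCAM at -0.18 and CBLC at -0.56. Ratios below 0 were thus not limited to the apolipoprotein genes there. APOC4, on 1 RNC-mRNA read and 8 mRNA reads, had 0.147 RPKM in the RNC-mRNA library and 1.35 RPKM in the mRNA library, and APOC2 was listed at 0 in both. In the reference annotation APOA1 overlaps an antisense gene on the opposite strand, APOA1-AS, which has no values here. Reads at that overlap could belong to either gene. Overlaps with genes that have no values here are also annotated for APOA4, APOB, APOC1, APOE and MTTP.

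**Figure D5:**
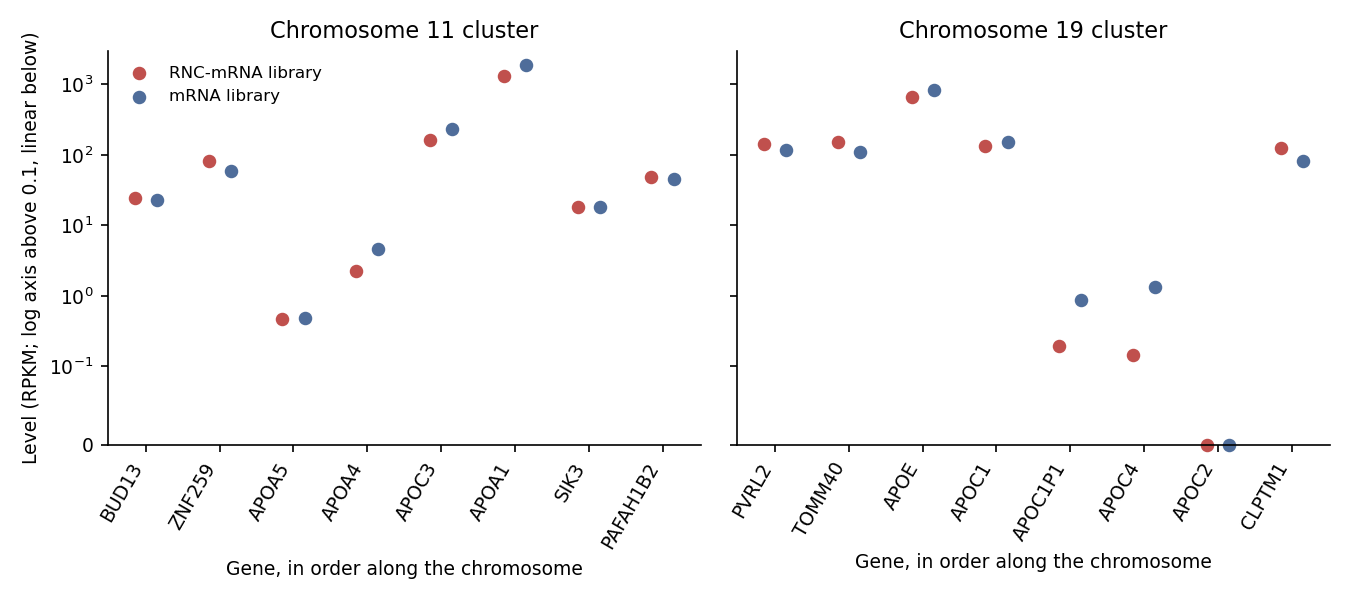
Level in RPKM of genes in their order along chromosome 11 (left panel) and chromosome 19 (right panel), with the RNC-mRNA library left of the mRNA library for each gene. The axis is logarithmic above 0.1 RPKM and linear below. APOC2 is listed at 0 in both libraries. SIDT2 on chromosome 11 and BCAM on chromosome 19, farther out, are not drawn.

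Epithelial and some intestinal markers were present alongside the apolipoprotein mRNAs. Of 27 enterocyte markers 21 were expressed, with a summed level of 4623 RPKM in the RNC-mRNA library and 4559 RPKM in the mRNA library. KRT8, KRT18 and KRT19, keratins of simple epithelia of which KRT8 and KRT18 are also made by hepatocytes, supplied 75.3% of that sum in the RNC-mRNA library and 76.1% in the mRNA library. The other 24 markers summed to 1143 RPKM in the RNC-mRNA library and 1091 RPKM in the mRNA library. The brush border scaffold VIL1 had 116 RPKM in the RNC-mRNA library and 109 RPKM in the mRNA library. EPCAM had 273 RPKM in the RNC-mRNA library and 244 RPKM in the mRNA library. In the same order of libraries, PHGR1 had 248 and 203 RPKM and DPP4 69.8 and 60.5 RPKM. CDH17 had 58.3 and 64.0 RPKM and CDHR5 52.3 and 62.3 RPKM. CDX1, MYO1A, SLC15A1, ALPI, ANPEP and SI were expressed at lower levels. KRT20 was low, at 0.0500 RPKM in the RNC-mRNA library and 0.977 RPKM in the mRNA library. Several genes of absorptive cells were also low: LGALS4 had 0.776 RPKM in the RNC-mRNA library and 1.87 RPKM in the mRNA library, and MGAM, TREH, SLC5A1 and SLC10A2 were below the level filter. Of 16 hepatocyte markers 5 were expressed, with 57.3 RPKM in all in the RNC-mRNA library and 79.5 RPKM in the mRNA library, led by the receptor subunits ASGR2 and ASGR1. Fibroblast markers, 8 of 10 expressed, summed to 60.9 RPKM in the RNC-mRNA library and 85.7 RPKM in the mRNA library, led by COL1A1. Blood cell markers, 3 of 12 expressed, summed to 26.1 RPKM in the RNC-mRNA library and 31.0 RPKM in the mRNA library, with HBB and MS4A1 listed at 0 in both. The sums of the hepatocyte, fibroblast and blood cell lists were lower in the RNC-mRNA library, as was that of the apolipoproteins. Single genes went both ways. Ratios were below the median gene for 3 of 5 expressed hepatocyte, 4 of 8 fibroblast and 2 of 3 blood cell markers. Any part of these cell types in the apolipoprotein ratios was not tested.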

How the data were processed

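The authors deposited RPKM per gene for 1 mRNA and 1 RNC-mRNA library of Caco-2 cells, per the file headers. Each symbol is paired with 1 RefSeq record. The submitters' processing notes name hg19 as the build. The aligner, the counting software and the treatment of multiply mapping reads are not given in the sources used here. No coordinates are reported, because the annotation used here is on another build.

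The authors' RPKM were turned into reads as follows. For each library, the total was estimated as the integer at which the largest number of genes of up to 3 RPKM with a reference transcript length held whole reads. That number was 1316 of 7062 genes for RNC-mRNA and 1435 of 7070 for mRNA, and the next best totals gave 584 and 623. A gene's length was then the value, within 2% of a GENCODE release 29 transcript of its record, at which both RPKM values gave whole reads (relative tolerance 2e-07). Where there was none, the fewest whole reads were used, as for APOA1, APOC1, APOC3, APOE, APOH and APOM. Both steps and the ratios were tested on simulated data. Depth was 11083302 and 9640364 reads in the RNC-mRNA and mRNA libraries.

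Ratios used a pseudocount of 0.1 RPKM, a mean of at least 1 RPKM and centring on the median expressed gene. With a single library per group, at least 2-fold from the median served as a rule of size. Of 285 list entries, 282 were matched. All 10 members are named; from other lists, the rule names the 2 most abundant, the highest, the lowest and each gene at least 2-fold from the median, plus direct partners of members. For the lists of cell markers it was applied in part. Some partners the rule names are not reported here. MOGAT2, FABP2, BAG6, TRMT10A, VIL1, KRT20, MGAM, TREH, SLC5A1 and SLC10A2 were chosen after their values were seen. So were EPCAM, DPP4, CDH17, CDHR5, CDX1, MYO1A, SLC15A1, ALPI, ANPEP and SI. The split of the keratins, the genes listed at 0 and the cluster neighbours were also chosen in that way. The members, lists and alternatives were chosen with earlier results of these data known. Python 3.11.15, numpy 2.4.6 and scipy 1.17.1 were used.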

Additional observations from a re-analysis of the deposited data

How the results depend on the processing

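No paired analysis was possible because each group has 1 library, and no replicate could be left out. Over 9 alternatives (pseudocounts of 0.01 and 1, other filters, other centring), the median ratio of the 10 mRNAs stayed between -0.54 and -0.27. Below the centre were 8 of the 10 in 7 alternatives, all 8 that were kept with a mean of at least 5 RPKM (APOA2 at -0.0087 and APOH at -0.0028), and all 10 when centred on the 1000 most abundant genes. The count at least 2-fold below, 1 in the main setting, was 0 with a pseudocount of 1, with a mean of at least 5 RPKM, which leaves out APOA4 and MTTP, with no filter, and with a filter on mRNA RPKM alone. APOA4 ranged from -1.18 to -0.79. Of 88 single values, 72 stayed within their counting interval and 16 moved beyond it. Filters and centring shift every ratio by the same amount. The count therefore depends on how wide each interval is, and the 88 values are not separate checks. APOA4 had the only 2-fold call in the main setting, so only that call could reverse, and it did not. The signs of APOA2 and APOH did change, under the filter at 5 RPKM and the centring on abundant genes. Centring on the 1000 most abundant genes moves the centre to 0.14, from -0.04, and puts APOA2 (-0.10) and APOH (-0.09) below it.

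The counts over all expressed genes depended more on the settings. At least 2-fold below and above were 1576 and 184 genes in the main setting, 1046 and 102 with a pseudocount of 1, 544 and 62 with a mean of at least 5 RPKM, and 3040 and 599 with no filter. Above, it was 113 when centred on the 1000 most abundant genes. The filters change how many genes are counted, 13402 in the main setting, so counts under different filters are not shares of the same set. The other centring moves every ratio by the same amount. Any further cause was not tested. Depth limits APOA4 and MTTP most, and the lack of replicates limits every value.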
